A study of Mus musculus with 6 samples.

Results

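Of the 18122 genes in the deposited table, the 8 genes Nmur1, Vipr2, Calca, Penk, Ptgir, Hpgds, Cysltr1 and Tph1 were taken by name as genes of neuropeptides, lipid mediators and serotonin that ILC2s carry. Group 2 innate lymphoid cells (ILC2s) are tissue lymphocytes without antigen receptors that release type 2 cytokines. They had been sorted from mouse lung and cultured before their RNA was sequenced. The tested group was 3 libraries from ICOS KO mice, whose genotype is given as C.129S4-Icostm1Shr/J, a targeted allele of the co-stimulatory receptor gene Icos. It was set against 3 libraries from wild-type (WT) mice, given as BALB/C BYJ. Neither group carried another allele or agent according to the labels, which give no age. Strain name and genotype change together in this design, so an effect of strain DNA and an effect of losing Icos cannot be told apart. Nothing in the labels tells whether replicate libraries stand for separate animals or cultures; the p-values therefore rest on the spread among these 6 libraries, and that spread may be technical.

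Peptides released by nerves and immune cells act on ILC2s through G protein-coupled receptors. Neuromedin U is an activator of ILC2s, and vasoactive intestinal peptide (VIP) promotes their cytokine release. Calcitonin gene-related peptide (CGRP) raises cyclic AMP and restrains them, and they make it themselves from Calca. Lipid mediators made from arachidonic acid act in parallel: cysteinyl leukotrienes activate ILC2s, while prostacyclin, like other prostanoids that raise cyclic AMP, can restrain them. Tph1 encodes the first enzyme of serotonin synthesis outside the brain.

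Library totals ranged from 13738062 to 15543034 estimated counts in ICOS KO and from 14976130 to 18736474 in WT. Levels below are CPM (read counts relative to the TMM-scaled library total), unless given per kilobase of exon. Icos itself fell to 140, 170 and 161 CPM in the ICOS KO libraries, against 434, 462 and 502 CPM in the WT libraries (log2 difference of -1.57 ± 0.10, SE; edgeR adjusted p = 1.27e-05). The reads that remain do not show which exons they came from, and the predicted gene Gm37039 overlaps it. The defining ILC2 transcripts were present in both genotypes, such as Gata3 (753 ± 53.1 CPM in ICOS KO and 868 ± 51.0 CPM in WT; SD, n = 3 each) and Il5 (6049 ± 309 CPM in ICOS KO and 6460 ± 533 CPM in WT). Of 16 tested ILC2 genes 10 had a positive log2 fold change. Past the edgeR threshold, Areg (1.41 on the log2 scale), Klrg1 (1.21), Arg1 (0.72) and Il1rl1 (0.45) were higher and Rora (-0.47) was lower in ICOS KO. Among all 13691 tested genes 6787 had a positive log2 fold change, 1.29% were called higher and 2.01% lower. Ptgdr2, the prostaglandin D2 receptor often used to mark ILC2s, was not analysed here. Transcripts of mast cells and basophils, which also carry Tph1, Hpgds, Cysltr1 and Alox5, summed to 63.7 to 73.6 CPM in ICOS KO against 361 to 416 CPM in WT over 15 listed genes, and of 11 tested 7 passed the threshold, all lower in ICOS KO. Among them Cpa3, a mast cell protease, stood at 1.47 ± 1.04 CPM in ICOS KO and 27.6 ± 3.48 CPM in WT, while Kit stood at 20.2 ± 2.86 and 20.3 ± 1.40 CPM (SD, n = 3 each). In bulk RNA, fewer cells of a type and less RNA per cell cannot be told apart. The first principal component put ICOS KO replicate 2 at 54.71, ICOS KO replicates 1 and 3 at 9.33 and 27.51, and all WT libraries between -35.02 and -22.28. That component held 40.4% of the variance, and within each genotype the libraries ranked on it as on mitochondrial share, which was 0.329% to 0.616% in ICOS KO and 0.263% to 0.422% in WT.

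The start regions of the genes are shown where cyclic AMP is known to act on transcription, since VIP, CGRP and prostacyclin receptors signal through it. RefSeq promoter windows on GRCm38.p6 were held for 6 of the 8 genes, all but Penk and Cysltr1, and the 250 bases before each start were searched for the core of the cyclic AMP response element, TGACG or its reverse complement CGTCA. That motif was found in 17.8% of 32851 windows of the same length. It was present before the start of Calca and before both starts of Tph1, and absent from the windows of Nmur1, Vipr2, Ptgir and Hpgds. The windows of Calca (chr7:114636358-114636607, minus strand), of Tph1 at its upstream start (chr7:46672538-46672787, minus strand) and downstream start (chr7:46667378-46667627, minus strand), and of Ramp1, a CGRP receptor subunit that fell in ICOS KO (chr1:91179572-91179821, plus strand), read as follows, with the core motif in capitals, and are shown because Calca and Tph1 hold it and Ramp1 is set beside them.
Calca: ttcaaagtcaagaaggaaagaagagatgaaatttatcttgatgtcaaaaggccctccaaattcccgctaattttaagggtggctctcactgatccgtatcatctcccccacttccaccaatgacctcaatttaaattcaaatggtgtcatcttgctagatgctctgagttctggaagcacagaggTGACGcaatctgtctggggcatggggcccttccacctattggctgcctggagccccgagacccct
Tph1 upstream start: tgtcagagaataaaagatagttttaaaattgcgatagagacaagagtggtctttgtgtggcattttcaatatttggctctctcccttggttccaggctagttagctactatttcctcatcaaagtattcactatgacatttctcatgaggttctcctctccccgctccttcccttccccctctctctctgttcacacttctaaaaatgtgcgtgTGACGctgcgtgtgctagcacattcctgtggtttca
Tph1 downstream start: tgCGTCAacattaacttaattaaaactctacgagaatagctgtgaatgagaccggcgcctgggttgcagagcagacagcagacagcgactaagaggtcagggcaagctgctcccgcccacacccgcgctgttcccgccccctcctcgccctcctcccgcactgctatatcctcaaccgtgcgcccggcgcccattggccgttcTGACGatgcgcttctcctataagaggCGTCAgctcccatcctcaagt
Ramp1: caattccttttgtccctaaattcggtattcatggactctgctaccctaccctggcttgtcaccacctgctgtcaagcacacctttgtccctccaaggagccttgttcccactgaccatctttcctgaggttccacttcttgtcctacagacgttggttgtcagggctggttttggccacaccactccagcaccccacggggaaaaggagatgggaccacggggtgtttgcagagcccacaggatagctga
The Calca window held 1 match, the Tph1 windows 1 and 3, and the Ramp1 window none. A GATA motif, AGATAA or TTATCT, was searched in the same way and was found in 9.99% of all windows and, among these genes, in that of Calca. It shares no bases with the cyclic AMP motif there. A match describes the letters only, and no window shows whether a factor bound it.

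The 8 genes spanned a wide range of levels, here given as CPM per kilobase of annotated exon so that genes can be compared. In ICOS KO libraries Nmur1 was highest at 106 ± 14.3, followed by Cysltr1 at 57.0 ± 1.22, Ptgir at 46.1 ± 8.04, Calca at 24.7 ± 3.99, Tph1 at 19.4 ± 3.49, Penk at 2.65 ± 0.838, Hpgds at 1.35 ± 0.0419 and Vipr2 at 0.554 ± 0.240 CPM per kilobase (SD, n = 3). Only Calca and Tph1, neighbours in that order, had overlapping libraries. In WT libraries the order ran Nmur1 at 103 ± 4.99, Ptgir at 55.4 ± 4.60, Cysltr1 at 36.0 ± 3.76, Tph1 at 24.6 ± 1.95, Calca at 17.3 ± 1.71, Penk at 2.65 ± 0.352, Vipr2 at 1.45 ± 0.382 and Hpgds at 1.41 ± 0.117 CPM per kilobase (SD, n = 3). There only Vipr2 and Hpgds overlapped. Cysltr1 thus ranked above Ptgir, and Calca above Tph1, in ICOS KO, and each ranked below in WT; these changes of place were not tested.

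Cysltr1 was the only member past the threshold, and it rose in ICOS KO. All 8 genes passed the filter on low counts, 1 of 8 was called by edgeR at an adjusted p of 0.05 (12.5%), and 3.29% of all 13691 tested genes were called. Genes called higher were 1.29% of all tested genes. Calca had a positive log2 fold change, and Vipr2, Tph1 and Ptgir had negative ones, none past the threshold. The libraries of the genotypes did not overlap for 4 of the 8 genes (Cysltr1, Calca, Vipr2 and Tph1), against 24.4% of all tested genes. The median log2 fold change was -0.03 over the 8 genes and -0.00353 over all tested genes, with 4 positive and 4 negative members.

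**Figure D1:**
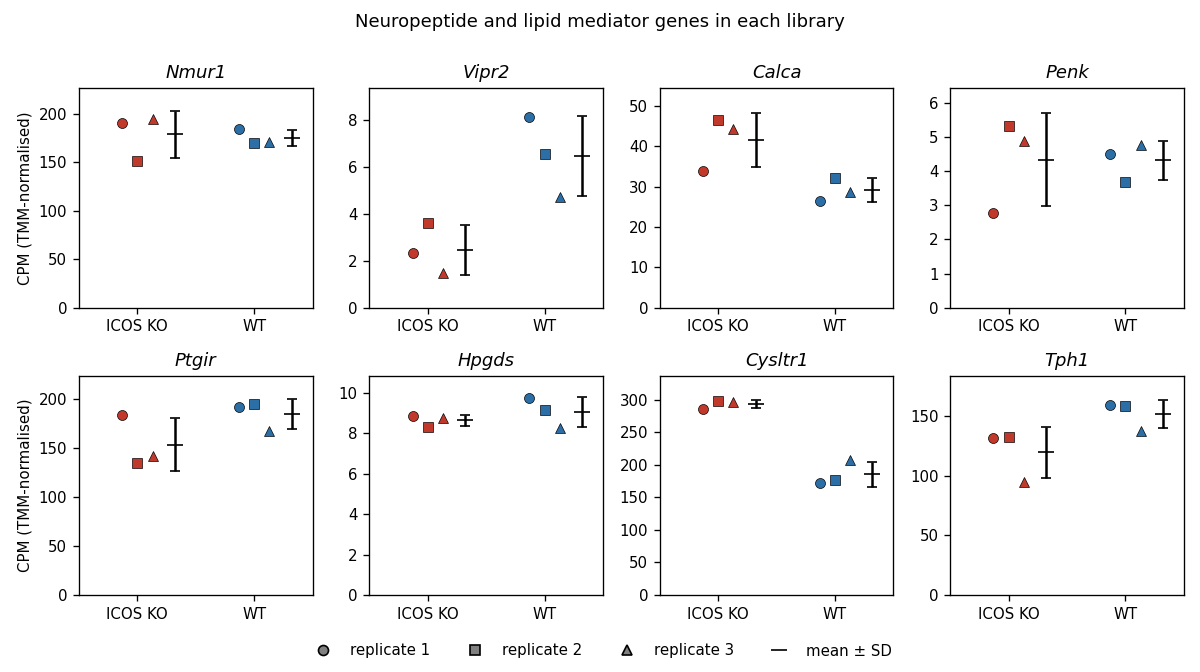
Each panel plots 1 gene's level (y axis, TMM-normalised CPM, linear from 0) in the 3 ICOS KO libraries (left) and the 3 WT libraries (right); marker shapes are replicate numbers and the bar is the mean ± SD. Cysltr1 sits at 286 to 297 CPM in ICOS KO and 172 to 207 CPM in WT, Vipr2 and Tph1 sit lower in every ICOS KO library, Calca sits higher, and the other 4 genes overlap.

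Nmur1 encodes the receptor of neuromedin U, a peptide of cholinergic neurons, and lies on chromosome 1 at 86386303 to 86426228 (GRCm38), 25.4 Mb from Icos. It stood at 191, 151 and 195 CPM in the ICOS KO libraries, against 185, 170 and 170 CPM in the WT libraries. The genotypes overlapped, with ICOS KO replicate 2 the lowest of all 6. The log2 fold change was 0.03 ± 0.11 (SE; edgeR adjusted p = 0.897), and its 95% interval ran from 0.862-fold to 1.21-fold. The sign of this value changed under 4 of 17 alternatives. The ligand gene Nmu was not analysed here.

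Vipr2 encodes VPAC2, a receptor of VIP (chromosome 12, 116077726 to 116146261). It stood at 2.33, 3.61 and 1.48 CPM in the ICOS KO libraries, from 36, 48 and 20 reads, against 8.13, 6.57 and 4.72 CPM in the WT libraries, from 155, 125 and 72 reads. Every ICOS KO library was below every WT library. The log2 fold change of -1.39 ± 0.37 (SE) was the largest in size among the 8 genes, yet its edgeR adjusted p was 0.0698. Few reads lay behind it, and the spread within groups was wide, at 43.3% of the mean in ICOS KO and 26.3% in WT. The adjusted p was 0.0108 in DESeq2, 0.0244 in voom with quality weights and 0.0387 in edgeR without ICOS KO replicate 2, over a range of 0.0108 to 0.297 under 16 alternatives. Vipr1, the other VIP receptor gene, had 0.226 ± 0.391 CPM in ICOS KO and 0.245 ± 0.132 CPM in WT (SD, n = 3 each), too few reads for a test. The predicted gene Gm20658 overlaps Vipr2 on the other strand, and whether the counting used strand is not stated in the labels.

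Both genes of the CGRP receptor, Ramp1 and Calcrl, fell in ICOS KO, while the ligand gene Calca had a positive log2 fold change that missed the threshold. Calca, which encodes calcitonin and CGRP from alternatively spliced transcripts (chromosome 7, 114631478 to 114636357), stood at 34.0, 46.7 and 44.3 CPM in the ICOS KO libraries, against 26.5, 32.2 and 28.8 CPM in the WT libraries. Every ICOS KO library was above every WT library, ICOS KO replicate 1 by the least. On the log2 scale the difference was 0.51 ± 0.15 (SE; edgeR adjusted p = 0.0987), with adjusted p from 0.0251 to 0.341 under 17 alternatives. It was 0.0251 without ICOS KO replicate 1 and 0.0339 in DESeq2. Counts for the whole gene do not tell CGRP transcripts from calcitonin transcripts, and reads could be shared with the near copy Calcb, which was not analysed here.

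Ramp1, the accessory protein that makes the calcitonin receptor-like receptor a CGRP receptor (chromosome 1, 91179822 to 91225196, 30.2 Mb from Icos), fell to 206, 273 and 240 CPM in the ICOS KO libraries, against 432, 440 and 469 CPM in the WT libraries. Its log2 fold change was -0.90 ± 0.11 (SE; edgeR adjusted p = 0.000985), and it was called under all 17 alternatives run. Calcrl, the receptor chain itself (chromosome 2, 84330626 to 84425411), fell to 18.5, 12.9 and 11.3 CPM in the ICOS KO libraries, against 31.0, 27.4 and 29.8 CPM in the WT libraries. Its log2 fold change was -1.04 ± 0.19 (SE; edgeR adjusted p = 0.0108). The call of Calcrl was lost without WT replicate 1 (adjusted p = 0.0577) or ICOS KO replicate 3 (0.0585). For both receptor genes the genotypes were fully separated. Ramp2 and Ramp3, which turn the same chain into adrenomedullin receptors, stood at 2.08 ± 0.939 and 1.60 ± 1.44 CPM in ICOS KO, against 1.26 ± 0.579 and 2.63 ± 0.470 CPM in WT (SD, n = 3 each), with edgeR adjusted p of 0.474 and 0.524. Calca and Uchl1 are also genes of pulmonary neuroendocrine cells, whose 4 listed genes with counts summed to 28.6 to 35.5 CPM in ICOS KO against 22.0 to 25.0 CPM in WT. Most of that was Uchl1, at 27.7 ± 4.61 CPM in ICOS KO and 18.1 ± 1.09 CPM in WT. Their secretory granule marker Chga was at 0 in every ICOS KO library and at 0, 0.0526 and 0.656 CPM in the WT libraries, too few reads for a test. Endothelial cells also carry Calcrl. Of 7 listed endothelial and stromal genes 3 had counts, and they summed to 68.7 to 74.1 CPM in ICOS KO against 47.4 to 58.0 CPM in WT. Nearly all of that sum was 1 gene, Pecam1, at 68.5 ± 2.03 CPM in ICOS KO and 51.2 ± 5.09 CPM in WT (SD, n = 3 each, edgeR adjusted p = 0.0777). The part of these cells in the values of Calca and Calcrl was not tested.

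Penk encodes proenkephalin, the precursor of the opioid enkephalins (chromosome 4, 4133531 to 4138819). It stood at 2.78, 5.34 and 4.90 CPM in the ICOS KO libraries, against 4.51, 3.68 and 4.79 CPM in the WT libraries. The genotypes overlapped, and ICOS KO replicate 1 was the lowest of all 6. Its log2 fold change was 0.00186 ± 0.33 (SE; edgeR adjusted p = 0.999), with a 95% interval from 0.608-fold to 1.65-fold. Its sign changed under 8 of 16 alternatives. The opioid receptor genes Oprm1 and Oprd1 were not analysed here.

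Of the 50 listed genes of neuropeptides, neurotransmitters and their receptors, 13 were tested, and the 2 past the threshold, Calcrl and Ramp1, both fell. Genes called lower were 2.01% of all tested genes. Over the 13 the median log2 fold change was -0.09. Grp, which encodes gastrin-releasing peptide, stood at 0.244 ± 0.302 CPM in ICOS KO and 1.86 ± 0.615 CPM in WT (edgeR adjusted p = 0.0878). Pomc, the precursor of opioid and melanocortin peptides, stood at 0.717 ± 0.166 CPM in ICOS KO and 1.57 ± 0.681 CPM in WT (SD, n = 3 each; edgeR adjusted p = 0.265).

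Of 8 tested genes that process or degrade peptides, 2 passed the threshold and both fell, with a median log2 fold change of -0.33. The share called lower among all tested genes was 2.01%. Pcsk1, a proprotein convertase that cuts neuropeptide precursors such as proenkephalin, fell to 73.7, 66.4 and 55.9 CPM in the ICOS KO libraries, against 150, 129 and 147 CPM in the WT libraries. The genotypes were far apart, and the log2 fold change was -1.12 ± 0.12 (SE; edgeR adjusted p = 0.000501), called under all 17 alternatives run. Cpd, a carboxypeptidase that trims cut precursors, fell to 85.1, 89.8 and 64.9 CPM in the ICOS KO libraries, against 158, 145 and 121 CPM in the WT libraries (-0.82 ± 0.14, SE; edgeR adjusted p = 0.0084). Its call was lost without WT replicate 1 or 2 (adjusted p = 0.0529 and 0.0546). Pam, the enzyme that amidates peptides such as CGRP, stood at 3.41 ± 0.742 CPM in ICOS KO and 1.86 ± 0.759 CPM in WT (edgeR adjusted p = 0.259). Ece1 and Ide, which degrade peptides, stood at 34.7 ± 10.4 and 115 ± 15.1 CPM in ICOS KO, against 49.6 ± 11.4 and 132 ± 4.78 CPM in WT (SD, n = 3 each; edgeR adjusted p = 0.217 and 0.336).

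**Figure D2:**
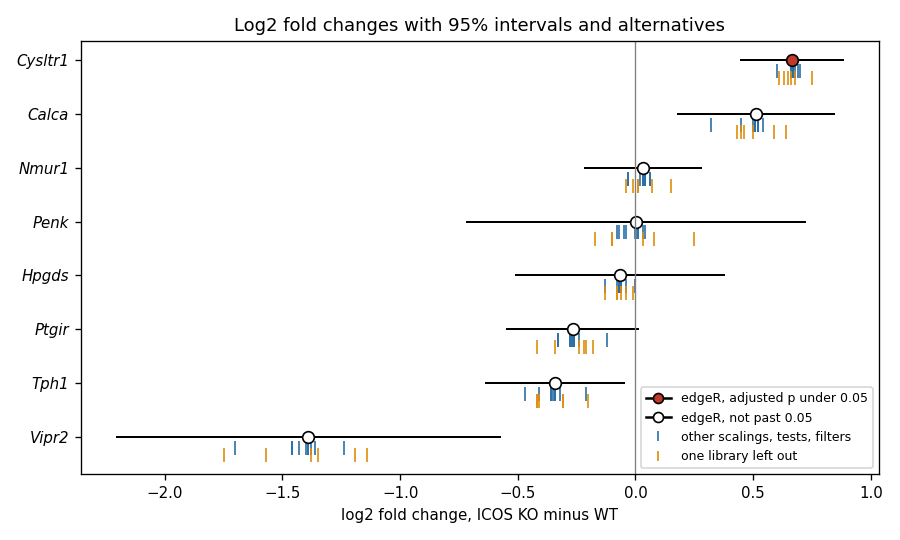
The x axis is the log2 fold change, ICOS KO minus WT, for each gene (y axis); circles are the edgeR value with its 95% interval, filled where the adjusted p was under 0.05, and ticks are the values under other scalings, tests and filters (blue) or with 1 library left out (orange). The Cysltr1 ticks lie between 0.60 and 0.75, those of Vipr2 between -1.75 and -1.14, and those of Nmur1, Penk and Hpgds lie around 0.

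In the leukotriene pathway a receptor gene, Cysltr1, and the gene of the first enzyme, Alox5, both rose in ICOS KO. Cysltr1 encodes the first receptor for cysteinyl leukotrienes (chromosome X, 106574346 to 106603679). It stood at 286, 297 and 297 CPM in the ICOS KO libraries, against 172, 176 and 207 CPM in the WT libraries. The SD over the ICOS KO libraries was 2.14% of their mean, and all stood well above the highest WT library, replicate 3. The rise was 1.58-fold, with a 95% interval of 1.36-fold to 1.84-fold which is 0.66 ± 0.10 on the log2 scale (SE; edgeR adjusted p = 0.00354). It was called under all 17 alternatives run, at an adjusted p of at most 0.0398. Cysltr1 had the 104th smallest p of all tested genes but only the 1825th largest log2 fold change in size. The predicted gene Gm5127 overlaps it on the other strand and stood at 13.4 ± 1.78 CPM in ICOS KO and 8.30 ± 2.23 CPM in WT (SD, n = 3 each), and without a stated strand setting reads of the overlap cannot be told apart. Eosinophils and T cells can also carry Cysltr1. T cell genes summed to 367 to 469 CPM in ICOS KO against 245 to 299.9 CPM in WT over 10 genes. Nearly all of that sum was Trbc1, Trbc2 and Cd3g. Of 6 tested, 3 had a positive and 3 a negative log2 fold change. Past the threshold, Trbc1 and Trbc2 were higher and Cd3e was lower. Trac and Cd3d stood at 0.579 ± 0.239 and 0.977 ± 0.137 CPM in ICOS KO, against 0.988 ± 0.520 and 1.16 ± 0.472 CPM in WT (SD, n = 3 each; edgeR adjusted p = 0.543 and 0.83). Cd8a and Cd8b1 were at 0 in every ICOS KO library. In WT libraries they ranged from 0 to 0.852 CPM and from 0 to 0.894 CPM, too few reads for a test. Eosinophil genes summed to 19.4 to 21.6 CPM in ICOS KO against 15.8 to 54.9 CPM in WT over 6 genes. Of 3 tested none passed the threshold, and 2 had a positive and 1 a negative log2 fold change. Ccr3 stood at 17.1 ± 2.62 CPM in ICOS KO and 11.2 ± 1.66 CPM in WT (SD, n = 3 each, edgeR adjusted p = 0.107). Epx, not tested, was at 0 in every ICOS KO library and at 7.24, 17.4 and 0 CPM in the WT libraries. The part of these cells, and of mast cells and basophils, in the value of Cysltr1 was not tested. Cysltr2, the second receptor, stood at 38.7, 44.0 and 46.0 CPM in the ICOS KO libraries, against 31.4, 34.9 and 37.3 CPM in the WT libraries (0.31 ± 0.13, SE; edgeR adjusted p = 0.215).

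Alox5, the 5-lipoxygenase that starts leukotriene synthesis (chromosome 6, 116410077 to 116461178), rose to 169, 117 and 150 CPM in the ICOS KO libraries, against 57.8, 55.8 and 59.4 CPM in the WT libraries. The WT libraries were nearly level and all ICOS KO libraries lay far above them. The rise was 2.52-fold, or 1.34 ± 0.13 on the log2 scale (SE; edgeR adjusted p = 0.000252), and it was called under all 17 alternatives run. Its helper protein gene Alox5ap stood at 7.93 ± 1.81 CPM in ICOS KO and 9.93 ± 1.75 CPM in WT (SD, n = 3 each; edgeR adjusted p = 0.481). Ltc4s, which makes leukotriene C4, was not analysed here. Mgst2 and Mgst3, glutathione transferases of which Mgst2 can make leukotriene C4, stood at 6.08 ± 1.61 and 9.17 ± 0.607 CPM in ICOS KO, against 2.99 ± 0.168 and 15.0 ± 1.47 CPM in WT (edgeR adjusted p = 0.103 and 0.0584). Abcc1, the exporter of leukotriene C4, stood at 51.6 ± 12.3 CPM in ICOS KO and 78.3 ± 5.17 CPM in WT (edgeR adjusted p = 0.0701). Of the 15 tested genes of this list 2 passed the threshold and both rose, with a median log2 fold change of 0.19. The share called higher among all tested genes was 1.29%. Macrophages and dendritic cells also carry Alox5. Their 11 listed genes summed to 86.0 to 115 CPM in ICOS KO against 119 to 164 CPM in WT. Of 6 tested 1 passed the threshold, Csf1r, and was lower. It stood at 3.86 ± 1.26 CPM in ICOS KO and 11.3 ± 2.19 CPM in WT (edgeR adjusted p = 0.013). B cells carry Alox5 too, and 5 B cell genes summed to 31.9 to 48.0 CPM in ICOS KO against 26.5 to 28.0 CPM in WT. Of these Cd79b passed the threshold and was higher, at 31.9 ± 7.29 CPM in ICOS KO and 19.1 ± 1.76 CPM in WT (SD, n = 3 each, edgeR adjusted p = 0.0466). The part of these cells, and of the mast cells and basophils given above, in the value of Alox5 was not tested.

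**Figure D3:**
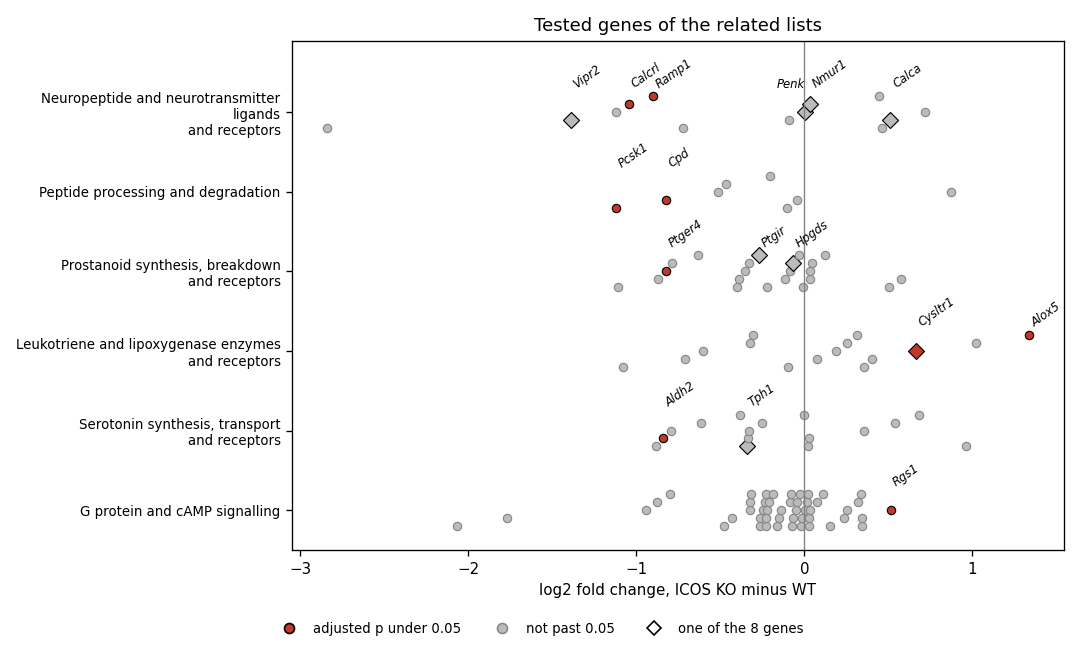
Each point is a tested gene of the list on the y axis, at its log2 fold change, ICOS KO minus WT (x axis); red points passed an adjusted p of 0.05, diamonds are the 8 genes, and vertical spread is for legibility only. Red points on the left are Calcrl, Ramp1, Pcsk1, Cpd, Ptger4 and Aldh2, and those on the right are Cysltr1, Alox5 and Rgs1.

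Ptgir encodes the prostacyclin receptor (chromosome 7, 16906490 to 16910905). It stood at 184, 135 and 142 CPM in the ICOS KO libraries, against 192, 196 and 167 CPM in the WT libraries. The genotypes overlapped through ICOS KO replicate 1, which stood above WT replicate 3. On the log2 scale the difference was -0.27 ± 0.13 (SE; edgeR adjusted p = 0.268), and its 95% interval ran from 0.685-fold to 1.01-fold. Without ICOS KO replicate 1 the log2 fold change was -0.42 and the adjusted p 0.0416, the only call in 17 alternatives, which ran up to 0.576.

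Hpgds encodes the haematopoietic prostaglandin D synthase (chromosome 6, 65117293 to 65144908). It stood at 8.85, 8.34 and 8.76 CPM in the ICOS KO libraries, against 9.75, 9.15 and 8.26 CPM in the WT libraries. The genotypes overlapped, and no library stood apart. Its log2 fold change was -0.07 ± 0.20 (SE; edgeR adjusted p = 0.882), with a 95% interval from 0.704-fold to 1.30-fold.

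Among 22 tested prostanoid genes 1 passed the threshold and fell, and 16 had a negative log2 fold change, with a median of -0.17. Over all tested genes 2.01% were called lower and 50.4% had a negative log2 fold change. Ptger4, which encodes the prostaglandin E2 receptor EP4, a receptor that raises cyclic AMP, fell to 40.9, 36.2 and 35.7 CPM in the ICOS KO libraries, against 78.0, 66.6 and 54.7 CPM in the WT libraries (-0.82 ± 0.14, SE; edgeR adjusted p = 0.0094). Leaving out WT replicate 1, WT replicate 2 or ICOS KO replicate 3 ended the call (adjusted p of at most 0.0611). Ptger2, the EP2 receptor gene, stood at 33.5 ± 1.33 CPM in ICOS KO and 42.8 ± 4.79 CPM in WT (edgeR adjusted p = 0.17). The cyclooxygenase genes Ptgs1 and Ptgs2 stood at 2.37 ± 1.74 and 0.540 ± 0.461 CPM in ICOS KO, against 3.64 ± 1.06 and 0.997 ± 0.996 CPM in WT (SD, n = 3 each; edgeR adjusted p = 0.494 and 0.622). Pla2g4a, the phospholipase that frees arachidonic acid, stood at 1.93 ± 0.176 CPM in ICOS KO and 4.19 ± 1.03 CPM in WT (edgeR adjusted p = 0.121). Ptges, a prostaglandin E synthase gene, stood at 6.81 ± 0.528 CPM in ICOS KO and 11.7 ± 3.60 CPM in WT (edgeR adjusted p = 0.127). Ptgis, which makes prostacyclin, and Hpgd, which breaks prostaglandins down, were not analysed here.

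Tph1 encodes tryptophan hydroxylase 1 (chromosome 7, 46644641 to 46672537). It stood at 132, 132 and 94.8 CPM in the ICOS KO libraries, against 159, 158 and 138 CPM in the WT libraries. Every ICOS KO library was below every WT library, by a small margin for replicates 1 and 2. The log2 fold change was -0.34 ± 0.13 (SE; edgeR adjusted p = 0.189), and the adjusted p ranged from 0.0463, in voom with quality weights, to 0.49 under 17 alternatives. The mast cell and basophil sum given above moved the same way, and its part in the value of Tph1 was not tested.

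Of 16 tested serotonin genes 1 passed the threshold and fell, with a median log2 fold change of -0.29. Among all tested genes 2.01% were called lower. Aldh2, an aldehyde dehydrogenase that acts on the aldehyde formed from serotonin and on many other aldehydes, fell to 29.6, 25.0 and 33.2 CPM in the ICOS KO libraries, against 53.7, 53.6 and 50.2 CPM in the WT libraries (-0.84 ± 0.13, SE; edgeR adjusted p = 0.00514). Ddc, the next enzyme of serotonin synthesis after Tph1, stood at 4.10 ± 2.33 CPM in ICOS KO and 4.05 ± 0.510 CPM in WT (edgeR adjusted p = 0.978). Gch1, which starts synthesis of the hydroxylase's cofactor tetrahydrobiopterin, stood at 78.2 ± 6.97 CPM in ICOS KO and 98.3 ± 5.55 CPM in WT (edgeR adjusted p = 0.128), and Pts, the next enzyme of that path, at 25.2 ± 2.03 CPM in ICOS KO and 17.3 ± 2.61 CPM in WT (edgeR adjusted p = 0.101). Pcbd2, which helps regenerate the cofactor, stood at 30.5 ± 8.38 CPM in ICOS KO and 19.0 ± 0.856 CPM in WT (edgeR adjusted p = 0.0783). The vesicle transporter gene Slc18a2 and the degrading oxidase gene Maoa stood at 2.07 ± 0.444 and 2.33 ± 0.946 CPM in ICOS KO, against 3.60 ± 0.867 and 3.58 ± 0.475 CPM in WT (edgeR adjusted p = 0.26 and 0.399). Htr1b, a serotonin receptor gene, stood at 5.56 ± 1.83 CPM in ICOS KO and 10.3 ± 1.04 CPM in WT (SD, n = 3 each; edgeR adjusted p = 0.105).

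Downstream of these receptors, 48 genes of G proteins, cyclic AMP and receptor desensitisation were tested. Of these 1 passed the threshold and rose, against 1.29% called higher among all tested genes, and the median log2 fold change was -0.08. Rgs1, a brake on G protein signalling of chemoattractant receptors, rose to 416, 458 and 435 CPM in the ICOS KO libraries, against 282, 280 and 355 CPM in the WT libraries (0.51 ± 0.11, SE; edgeR adjusted p = 0.0241). Leaving out any of WT replicates 1 and 2 or ICOS KO replicates 2 and 3 ended the call, with an adjusted p as high as 0.164. Crem, whose transcripts include cyclic AMP-induced repressors, stood at 97.4 ± 6.74 CPM in ICOS KO and 76.7 ± 2.79 CPM in WT (edgeR adjusted p = 0.0986). Adcy7, an adenylyl cyclase gene, stood at 148 ± 22.0 CPM in ICOS KO and 200 ± 21.8 CPM in WT (edgeR adjusted p = 0.0942), and Gna15, a G protein alpha subunit gene, at 154 ± 6.18 CPM in ICOS KO and 122 ± 8.21 CPM in WT (SD, n = 3 each; edgeR adjusted p = 0.0909).

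**Figure D4:**
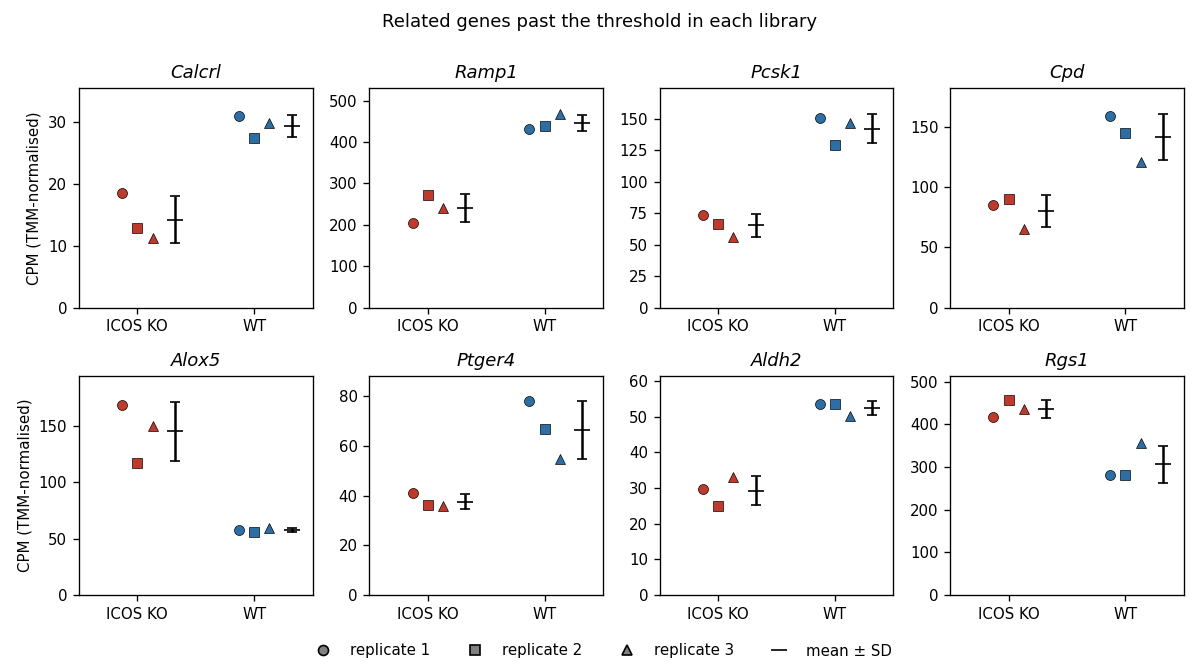
Each panel plots 1 related gene past the threshold (y axis, TMM-normalised CPM, linear from 0) in the 3 ICOS KO libraries (left) and the 3 WT libraries (right), with the mean ± SD. Calcrl, Ramp1, Pcsk1, Cpd, Ptger4 and Aldh2 lie lower and Alox5 and Rgs1 higher in all 3 ICOS KO libraries, with no overlap between genotypes.

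The 6 members with a mean of at least 5 CPM were also set beside 9145 other genes by the root mean square difference of their centred log2 CPM over the 6 libraries. Nearest to Cysltr1 were Susd3 (0.061) and Rom1 (0.0611), which both rose in ICOS KO (edgeR adjusted p = 0.0127 and 0.021). Nearest to Calca were Fkbp11 (0.0287) and Ppp1r35 (0.0464), and nearest to Tph1 were Josd1 (0.0438) and Dync1h1 (0.0536). Itgb3 (0.0103) and Bap1 (0.0263) lay nearest to Ptgir, Bin2 (0.0275) and Rinl (0.0321) to Nmur1, and Zfp622 (0.0209) and Gnl1 (0.0242) to Hpgds. With 6 libraries and this many candidates close matches are common, and the values describe these libraries only.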

How the data were processed

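RNA was measured in 6 libraries of cultured mouse lung ILC2s, 3 ICOS KO and 3 WT, matched to samples by the library name in the labels. The design text speaks of duplicates; all 3 libraries per genotype were used. Per the labels' protocols, cDNA was made with a SMARTer low-input kit. The authors' deposited table gives estimated counts, of which 34.5% were further than 0.001 from a whole number. The lowest total of a gene was 10. Genes given above as not analysed were looked for by name and had no entry in that table. The build mm10 and the tools STAR 2.7.8, Partek 10.0 and DESeq2 are named, per the submitters' processing notes. Annotation, counting step and strandedness: not given in the sources used here. Reads carry no molecular identifiers, so they are not independent molecules, and intervals cover the spread between libraries only.

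Estimated counts were rounded, filtered with filterByExpr, scaled with TMM factors and tested over all genes in R 4.3.3 with edgeR 4.0.16 (quasi-likelihood F test; limma 3.58.1 for voom), p-values adjusted after Benjamini and Hochberg and called under 0.05. Standard errors and 95% intervals are those implied by the F statistic. No pair of libraries agreed within sampling noise (chi-square per degree of freedom of at least 8.36). Same-numbered libraries were not treated as pairs. The members and lists were chosen with earlier results of these data known. Named genes are the members, the called genes of 6 related lists, partners of members and up to 3 further genes per list with the smallest p, of which 1 is not reported here; of marker lists, called genes or else the most abundant could be named. Kit, Chga, Cd3d, Cd3g, Trac, Cd8a, Cd8b1, Epx, Ramp2, Ramp3, Gata3, Il5, Gm5127, Gm37039 and Gm20658 were chosen after their values were seen. Marker lists of T, B, NK, eosinophil, neutrophil and epithelial cells were also summed. Alternatives were RLE, upper-quartile and library-total scaling, DESeq2 1.42.0, voom with and without quality weights, other filters, mitochondrial and haemoglobin genes left out, each library left out in turn, a block on replicate number, and removal of a trend on length and GC. That trend was fitted in each library to centred log2 CPM, on the length and GC of a gene's longest transcript (values held for 97.8% of tested genes). The fit was tested on simulated data. Positions and exon lengths are from GENCODE M21 on GRCm38, which is mm10, and promoters from RefSeq.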

Additional observations from a re-analysis of the deposited data

How the results depend on the processing

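Cysltr1, Ramp1, Alox5, Pcsk1 and Aldh2 kept their direction and their call under all 17 alternatives, and Icos did too. Over all genes 451 were called, of which 39% were higher in ICOS KO; the share was 28.2% with library totals as the scaling and 56.2% after removal of the trend on length and GC. The count was 929 in DESeq2, 906 in voom with quality weights and 784 with the replicate number as a block, and ran from 193 to 1090 with a library left out: 1090, 312 and 216 for ICOS KO replicate 1, 2 and 3, and 193, 194 and 369 for the WT ones. The deviations of same-numbered libraries from their group means were weakly correlated (r of 0.0868, 0.0784 and 0.0643, across genes). Differently numbered libraries were not compared in this way, so these values cannot tell whether the numbers mark pairs.

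Of the 8 members 1 was called, 3 in DESeq2 (with Calca and Vipr2), 3 in voom with quality weights (with Vipr2 and Tph1), 3 with the block (Calca and Vipr2) and 1 to 3 with a library left out (3 without ICOS KO replicate 1, with Calca and Ptgir, and 2 without ICOS KO replicate 2, with Vipr2). For every list below, the highest count with a library left out came without ICOS KO replicate 1, shared for prostanoids with WT replicate 3. Neuropeptide genes numbered 2, and 5 in DESeq2, 4 in weighted voom, 4 with the block and 1 to 4 with a library left out. Peptide-processing genes numbered 2, and 1 to 3 with a library left out. Prostanoid genes numbered 1, and 0 to 2 with a library left out. Leukotriene genes numbered 2, and 5 in DESeq2 and 4 in weighted voom. Serotonin genes numbered 1, and 4 in DESeq2, 6 in weighted voom, 2 with the block, 2 after trend removal and 1 to 5 with a library left out. G protein genes numbered 1, and 4 in DESeq2, 3 in weighted voom, 2 with the block, 3 after trend removal and 0 to 3 with a library left out. The causes were not tested.

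The sign changed under some alternative in 5 named genes, none of which any alternative called. Nmur1 had a log2 fold change of -0.03 with library totals and after trend removal, and -0.04 to 0.15 with a library left out. Penk had -0.07 with library totals, -0.05 in voom, -0.0033 with no filter, -0.04 with the block, -0.08 with the trend removed and -0.17 to 0.25 with a library left out. Hpgds had 0.00013 with the trend removed. Ptgs2, at -0.87 ± 0.90 (SE) in edgeR, had 0.02 in weighted voom and -1.76 to 0.25 with a library left out. Ddc had -0.03 with library totals, -0.07 in voom, -0.20 in weighted voom, -0.09 with the block and -0.55 to 0.28 with a library left out. Vipr2 rested on 20 to 155 reads and Penk on 43 to 86 reads per library. Ptgs2 and Grp, with SEs of 0.90 and 0.80, lay lower still, at 0.129 to 2.10 CPM and 0 to 2.23 CPM.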

Other observations

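Marker lists of further cell types were summed over each list's genes, and their part in the members' values was not tested. Genes of NK cells and other ILCs summed to 3.76 to 8.16 CPM in ICOS KO against 6.16 to 9.68 CPM in WT (2 of 4 lower). Neutrophil genes summed to 3.93 to 7.30 CPM in ICOS KO against 6.13 to 42.2 CPM in WT (5 tested, adjusted p above 0.05). Epithelial genes summed to 75.8 to 213 CPM in ICOS KO against 103 to 207 CPM in WT. Of 6 tested 1, Epcam, was called higher, while the other 5 had negative log2 fold changes. The median over the 6 was -0.28. Calls are at an edgeR adjusted p of 0.05.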
